A study of Rattus rattus with 24 samples.

Results

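The immediate early genes described here are Fos, Fosb and Fosl1, Jun and Junb, Egr1 and Egr2, Nr4a1, Ier2 and Arc. They were taken as every array probe set whose annotation carries 1 of these 10 symbols and no other, which gave 14 of the 31042 probe sets tested and 10 of the 14217 genes that have a probe set of their own. Of these, Fosb, Fosl1, Junb, Egr1, Nr4a1, Ier2 and Arc have a single probe set. Where a gene has more, the probe set with the highest mean over all arrays stands for it and the others are given beside it.

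Immediate early genes are transcribed within minutes of a stimulus from factors that are already present in the cell, such as serum response factor with its ELK partners and CREB, which growth factor and calcium signalling switch on through kinases. Fos and Jun proteins pair through leucine zippers into AP-1, a dimer that binds the promoters and enhancers of many later genes. Egr1 and Egr2 are zinc finger factors, Nr4a1 is an orphan nuclear receptor, and Ier2 is a small nuclear protein. Arc is not a transcription factor but a cytoskeleton-associated protein best known at the synapses of neurons. In the myelinating glia of peripheral nerve, Schwann cells, Egr2 drives myelin genes while Jun holds the cells back or returns them to a repair state.

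Cortical OPCs of early postnatal rat pups, selected with beads against the glial precursor antigen A2B5 and expanded in PDGF, were treated for 96 or 48 hours with T3 plus quetiapine (the combination), with quetiapine at 1 μM, with T3 at 45 nM or with DMSO vehicle (control). T3 (triiodothyronine) is the active thyroid hormone, which drives OPCs to become oligodendrocytes, and quetiapine is an antipsychotic drug. All groups were kept in the same medium, which was renewed with its treatment on day 2. The study reports a small amount of T3 in the B27 supplement of this medium. Control and quetiapine cultures thus had no added T3 but were not free of it. The GEO labels give the organism as Rattus rattus, whereas the study's methods name Sprague Dawley rats, the laboratory strain of Rattus norvegicus. Each of the 8 groups holds 3 arrays, and each of 3 biological replicates supplied an array to every group. RNA came from whole cultures, so more or fewer cells of a type and more or less RNA per cell cannot be told apart.

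Array medians lay between 6.43 and 6.51 log2, and arrays of a group correlated at 0.986 to 0.996 across probe sets. Cultures were not pure. At 96 hours the 8 astrocyte markers averaged 10.23 to 11.00 log2 over the combination arrays, 10.36 to 11.40 over the quetiapine arrays, 10.96 to 11.82 over the T3 arrays and 11.37 to 11.88 over the control arrays. Against control, 5 of 8 were lower and 1 higher in the combination, where 35.1% of all genes were called. With quetiapine 1 was lower (7.25% of genes), and with T3 1 was higher and 1 lower (14.7%). The same shares of all genes apply to the marker counts at 96 hours that follow. The 8 neuron markers averaged 7.42 to 7.75 log2 in the combination, 7.50 to 7.93 with quetiapine, 7.67 to 8.25 with T3 and 7.98 to 8.47 in control at 96 hours, and 2 were lower and 1 higher in the combination, 1 lower with quetiapine and 2 lower with T3. The 5 oligodendrocyte precursor markers averaged 9.35 to 9.81 log2, 9.76 to 10.3, 9.64 to 10.11 and 10.14 to 10.65 in the same order of groups, with 3 lower in the combination, 1 with quetiapine and 1 with T3. Of 7 oligodendrocyte markers, 7 were higher in the combination, 6 with quetiapine and 6 with T3. They averaged 12.33 to 13.25 log2 in the combination, 11.7 to 12.39 with quetiapine, 11.91 to 12.85 with T3 and 10.35 to 10.74 in control. At 48 hours they averaged 10.24 to 11.08, 9.754 to 10.28, 10.09 to 10.75 and 9.485 to 9.703 in the same order. The 10 microglia markers averaged highest in replicate 2 in each of the 8 groups. They averaged 7.02 log2 in control replicate 2 at 48 hours, against 5.31 and 5.60 in the other control arrays of that time. At 96 hours they averaged 6.13 in control replicate 2, against 5.21 and 5.45 in the other control arrays. As a sign of RNA quality, the 3′ probe set of Actb exceeded its 5′ counterpart on average by 0.738 log2 in the combination, 0.661 with quetiapine, 0.710 with T3 and 0.658 in control at 96 hours. For Gapdh the same difference was −0.111 log2 in the combination, where it was lowest, −0.0887 with quetiapine, −0.0484 with T3 and −0.0835 in control. At 48 hours the Actb difference averaged 0.583 log2 in the combination, 0.63 with quetiapine, 0.598 with T3 and 0.594 in control. The combination arrays thus lay at 0.5809 to 0.5845 at 48 hours and at 0.7038 to 0.7678 at 96 hours. For Gapdh the 48-hour means were −0.0955, −0.0799, −0.0824 and −0.0662 in the same order. The part of cell makeup or RNA quality in the results below was not tested.

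Fos was the member with the widest range. At 96 hours, its probe set 1375043_at read 10.58, 10.90 and 10.72 log2 in combination replicates 1, 2 and 3. It read 8.46, 9.54 and 9.75 in the quetiapine cultures, 10.37, 10.52 and 10.03 in the T3 cultures, and 7.41, 8.87 and 8.78 in the control cultures. Every array with added T3, alone or in the combination, therefore lay above every array without added T3. At 48 hours the same separation was seen, with 9.21, 9.24 and 9.88 in the combination, 7.11, 7.45 and 8.10 with quetiapine, 9.40, 9.29 and 9.67 with T3, and 7.43, 8.05 and 7.99 in control.

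**Figure D1:**
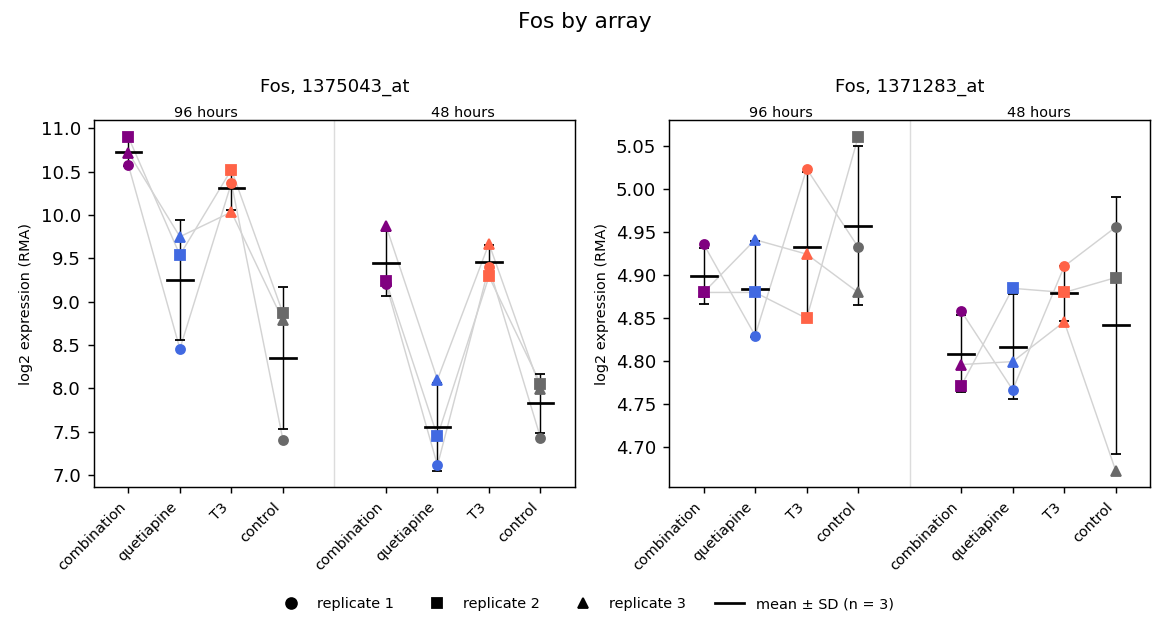
Log2 expression of Fos in each of the 24 arrays, by treatment and time, for the probe set that stands for the gene (left) and the other Fos probe set (right), on different y axes. Points are arrays, grey lines join arrays of the same replicate number, and bars are the mean ± SD of 3 arrays. On the left the arrays with added T3 lie above those without added T3 at both times, whereas on the right all 24 arrays lie between 4.67 and 5.06 log2.

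At 96 hours Fos averaged 10.73 ± 0.162 log2 in the combination and 8.35 ± 0.821 in control (SD, n = 3 each), a rise of 2.38 (SE 0.392, 5.21-fold, limma adjusted p = 0.00102). It averaged 10.31 ± 0.25 with T3, which was 1.96 above control (3.88-fold, adjusted p = 0.00943). Both calls held without any single array. With quetiapine alone Fos averaged 9.25 ± 0.694, and the difference from control of 0.90 did not pass the test (95% interval 0.03 to 1.76, adjusted p = 0.228), although quetiapine lay above control by 1.05, 0.67 and 0.97 within the 3 replicates. The combination exceeded quetiapine by 1.48 (2.80-fold, adjusted p = 0.0441), a call that was lost whichever of the 6 arrays was left out, with adjusted p of 0.0541 to 0.150. Those fits had no replicate block. With the block and all arrays of that time, the call passed. The combination and T3 did not differ past the test (0.42, interval −0.44 to 1.28). Quetiapine was 1.06 below T3, which passed only with the replicate as a block (adjusted p = 0.207 without it and 0.0391 with it).

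At 48 hours, Fos was higher by 1.62 in the combination than in control (3.07-fold, adjusted p = 0.00687) and by 1.63 with T3 (SE 0.265, 3.09-fold, adjusted p = 0.0167). Quetiapine differed from control by −0.27 (interval −0.86 to 0.31). It lay below T3 (log2 change −1.90, adjusted p = 0.00563), and the combination lay 1.89 above quetiapine (3.71-fold, adjusted p = 0.00623). The call for T3 was lost without T3 replicate 2 (adjusted p = 0.0594), T3 replicate 3 (0.0727) or control replicate 3 (0.0503), and the other 3 calls were kept without any single array. With the replicate block and all arrays of that time, the call for T3 passed, as did the other 3. The combination and T3 differed by −0.01 (interval −0.59 to 0.57). All treatments of a time share its 3 control arrays, so their differences from control are not independent of each other.

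Fos also rose between the times in quetiapine and combination cultures. It was higher at 96 than at 48 hours by 1.70 in quetiapine cultures (SE 0.357, 3.24-fold, adjusted p = 0.0127) and by 1.29 in combination cultures (2.45-fold, adjusted p = 0.0127). Within replicates 1, 2 and 3 these differences were 1.35, 2.09 and 1.65 with quetiapine, and 1.37, 1.66 and 0.84 in the combination. The quetiapine call was lost without the 48-hour replicate 1 (adjusted p = 0.0857) or 2 (0.0685), or without the 96-hour replicate 2 (0.0734) or 3 (0.0785). The combination call was lost without the 48-hour replicate 1 (0.0596) or 2 (0.0518), or the 96-hour replicate 2 (0.0560). With the replicate block and all arrays, both calls passed. In T3 cultures the difference was 0.86 and passed only with the replicate block (adjusted p = 0.164 without it, 0.0306 with it). In control cultures it was 0.53 and did not pass (adjusted p = 0.697).

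The other Fos probe set, 1371283_at, did not follow this pattern. Its group means lay between 4.81 and 4.96 log2, and it passed no comparison. All statements on Fos thus rest on a single probe set of the pair.

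Fosb and Fosl1, the other Fos family members described here, stayed low and flat. Fosb, whose product pairs with Jun proteins as Fos does, read 3.57 to 4.01 log2 over all arrays, and Fosl1, which encodes FRA1, read 5.57 to 6.18. Only 9.66% of probe sets had a lower mean than that of Fosb, against 41.2% for Fosl1. Fosb thus read near the bottom of the array's range, where a flat reading says little about its expression. The differences of Fosb from control ranged no further than −0.10 to 0.09 and those of Fosl1 than −0.15 to 0.08. None of these passed the test. With the replicate block alone, Fosb was higher by 0.22 at 96 than at 48 hours in quetiapine cultures (adjusted p = 0.0499, against 0.129 without the block).

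Jun, the main partner of Fos in AP-1, moved at 96 hours in every quetiapine-containing group. Its probe set 1389528_s_at read 10.57, 10.71 and 10.26 log2 in combination replicates 1, 2 and 3, 10.66, 10.48 and 10.41 with quetiapine, 9.91, 10.09 and 10.24 with T3, and 9.08, 9.60 and 10.03 in control. The combination and quetiapine arrays all lay above the T3 and control arrays. At 48 hours it read 8.53, 9.17 and 10.05 in the combination, 8.24, 8.96 and 10.17 with quetiapine, 8.89, 9.35 and 10.20 with T3, and 8.52, 9.33 and 9.98 in control. There the 4 conditions overlapped and the replicates lay apart, with replicate 1 lowest and replicate 3 highest in each condition. The SD of a group was 0.66 to 0.97 at 48 hours and 0.13 to 0.48 at 96 hours.

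**Figure D2:**
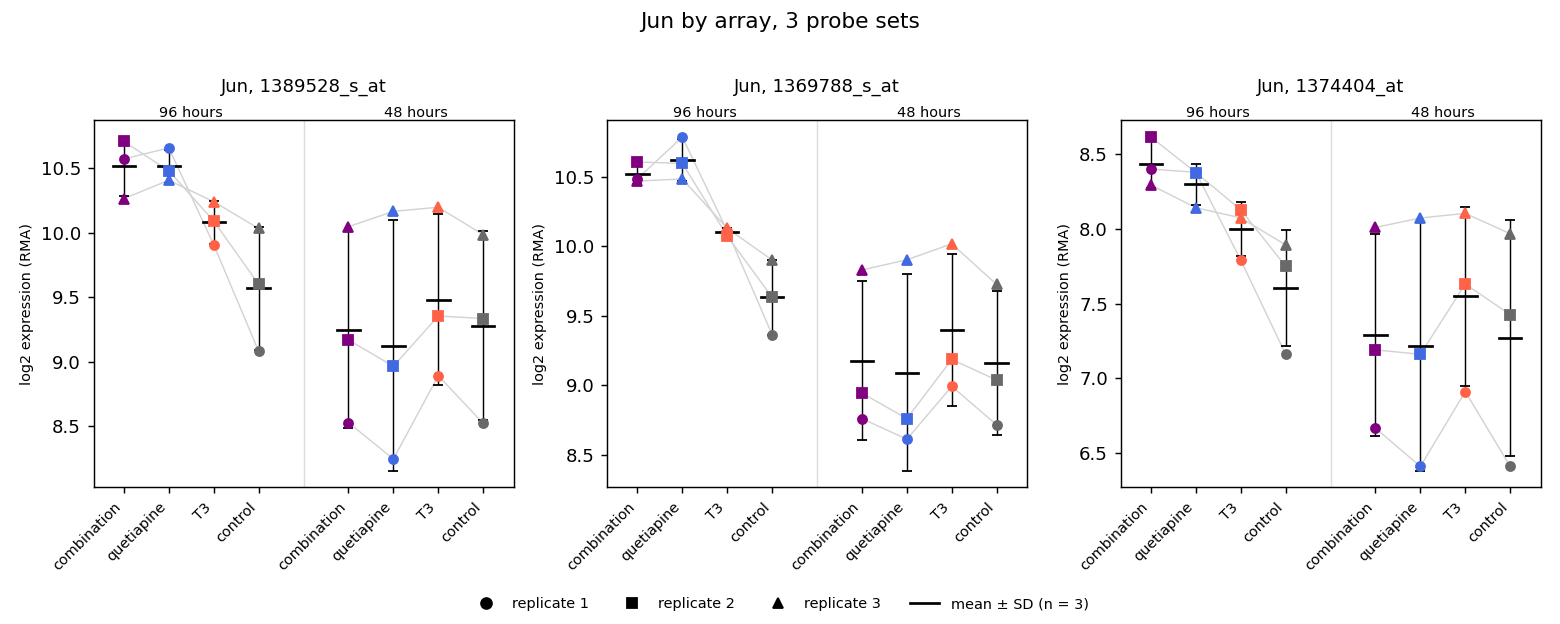
Log2 expression of the 3 Jun probe sets in each of the 24 arrays, by treatment and time, each on its own y axis. Points are arrays, grey lines join arrays of the same replicate number, and bars are the mean ± SD of 3 arrays. At 96 hours the combination and quetiapine arrays lie at the top of each panel, and at 48 hours the replicates spread over more than the treatments do.

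At 96 hours, Jun averaged 10.52 ± 0.227 log2 in the combination, 10.52 ± 0.129 with quetiapine and 9.57 ± 0.477 in control (SD, n = 3 each). The rise over control was 0.94 in both cases (SE 0.206, 1.92-fold), with an adjusted p of 0.00533 for the combination and 0.0224 for quetiapine. Probe set 1369788_s_at rose by 0.89 in the combination (adjusted p = 0.00037) and by 0.99 with quetiapine (0.00115), and 1374404_at by 0.84 (0.00434) and 0.70 (0.0415). The quetiapine call was lost without quetiapine replicate 1 (0.0843), 2 (0.0549) or 3 (0.0540) or control replicate 2 (0.0640), whereas that of the combination was kept without any single array. These fits had no replicate block. With the block and all arrays of that time, both calls passed. When all 24 arrays entered a single fit, which brings in the wider spread of the 48-hour arrays, neither passed (adjusted p = 0.221 for quetiapine and 0.116 for the combination).

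T3 alone gave smaller differences. Jun lay 0.51 above control with T3 (interval 0.06 to 0.96, adjusted p = 0.145), and 1 of the 3 probe sets passed, 1369788_s_at with 0.47 (adjusted p = 0.0318). Without control replicate 3 the probe set that stands for Jun passed as well (0.74, adjusted p = 0.037). Quetiapine exceeded T3 by 0.44 (interval −0.02 to 0.89, adjusted p = 0.335), so a difference between the single compounds was not shown. The difference between the combination and quetiapine was 0.00 (interval −0.45 to 0.45). At 48 hours the differences of Jun from control were −0.03 in the combination, −0.16 with quetiapine and 0.20 with T3, none past the test, with intervals that reached from −1.38 to 1.43. Within replicates 1, 2 and 3 the T3 array lay above control by 0.37, 0.02 and 0.21, which did not pass with the replicate block either (adjusted p = 0.290).

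Between the times, Jun was 1.27 higher at 96 than at 48 hours in the combination (SE 0.447, 2.41-fold, adjusted p = 0.0479). This was lost without any array but the 48-hour replicate 3, namely without the 48-hour replicate 1 (0.240) or 2 (0.114) or the 96-hour replicate 1 (0.0906), 2 (0.147) or 3 (0.0707). With the replicate block and all arrays, the combination call passed. In quetiapine cultures the difference was 1.39 and passed only with the replicate block (adjusted p = 0.114 without it, 0.00802 with it), or without the 48-hour replicate 3 (0.0215). Probe set 1369788_s_at gave 1.53 for quetiapine (adjusted p = 0.0136) and 1.34 for the combination (0.00523).

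Junb, an AP-1 subunit that activates transcription less than Jun does, varied far less. At 96 hours it read 7.06, 6.87 and 7.05 log2 in the combination, 6.92, 7.00 and 6.96 with quetiapine, 7.22, 7.53 and 7.31 with T3, and 6.94, 7.44 and 7.00 in control. The T3 arrays lay above the combination and quetiapine arrays and overlapped with control, in which replicate 2 was high. Without control replicate 2, Junb was 0.38 above control with T3 (adjusted p = 0.0446), against 0.23 with all arrays (0.320). Quetiapine lay 0.39 under T3 at 96 hours (log2 change −0.39, adjusted p = 0.154), which passed only in the fit over all 24 arrays (0.0404). In T3 cultures Junb was 0.33 higher at 96 than at 48 hours, which passed with the replicate block (adjusted p = 0.0227) but not without it (0.0738).

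Egr1 ran opposite to Fos and Jun between the times in the combination. At 96 hours it read 8.24, 7.79 and 9.14 log2 in the combination, 8.71, 9.39 and 9.84 with quetiapine, 8.67, 8.58 and 8.85 with T3, and 9.41, 9.11 and 9.03 in control. At 48 hours it read 9.87, 9.65 and 10.19 in the combination, 10.53, 10.09 and 9.82 with quetiapine, 10.10, 9.12 and 9.45 with T3, and 10.23, 9.59 and 9.68 in control. The 96-hour arrays of the combination, of T3 and of control each lay below all 48-hour arrays of the same treatment, while those of quetiapine overlapped.

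**Figure D3:**
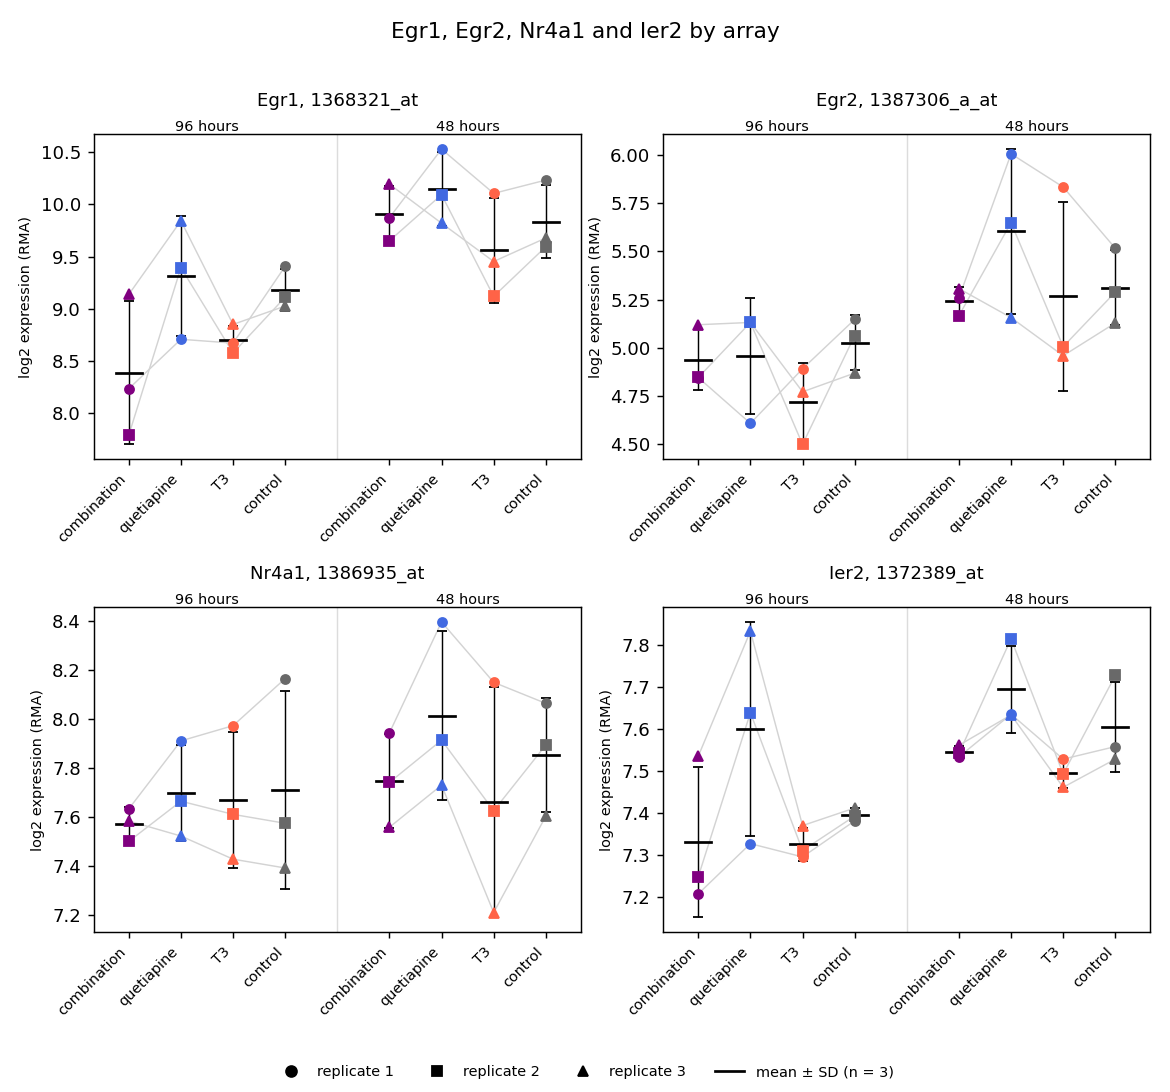
Log2 expression of Egr1, Egr2, Nr4a1 and Ier2 in each of the 24 arrays, by treatment and time, each on its own y axis. Points are arrays, grey lines join arrays of the same replicate number, and bars are the mean ± SD of 3 arrays. Egr1 is lower at 96 than at 48 hours in the combination, and Nr4a1 is highest in replicate 1 of every group.

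Egr1 fell in the combination between the times, to 8.39 ± 0.685 at 96 hours against 9.90 ± 0.272 at 48 hours (SD, n = 3 each). The log2 change was −1.52 (SE 0.319, 0.350-fold, adjusted p = 0.00184) and was kept without any single array, with adjusted p no higher than 0.0185. With T3 the change was −0.86 (adjusted p = 0.115, and 0.0497 with the replicate block), with quetiapine −0.83 (0.191) and in control −0.65 (0.606). The change in the combination less that in control was −0.86 and did not pass (adjusted p = 0.300), so a difference between the treatments in their time course was not shown.

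Against control at 96 hours, Egr1 differed by −0.79 in the combination (interval −1.51 to −0.08), which passed with the replicate block (adjusted p = 0.0419) and not without it (0.0930). Combination replicate 3 was the high array of its group, and without it the change was −1.17 (adjusted p = 0.0125). The combination lay below quetiapine (log2 change −0.93, adjusted p = 0.117, and 0.0401 with the block), which passed without combination replicate 3 (0.0334) or quetiapine replicate 1 (0.0482). T3 differed from control by −0.48 (interval −1.20 to 0.24) and quetiapine by 0.13 (interval −0.58 to 0.85). At 48 hours no difference of Egr1 from control passed, and these lay between −0.28 and 0.31.

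Egr2, also called Krox20, was low. Its probe set 1387306_a_at had group means of 4.72 to 5.60 log2 and its other probe set, 1398266_a_at, of 4.14 to 4.25. Differences of 1387306_a_at from control lay between −0.31 and 0.29 and none passed. In quetiapine cultures Egr2 was lower at 96 hours, with 4.61, 5.13 and 5.13, than at 48 hours, with 6.01, 5.65 and 5.16. This change of −0.65 passed with the replicate block (adjusted p = 0.0487) but not without it (0.129), or without the 48-hour replicate 3 (0.0393). Of 3 measured Schwann cell markers, 1 was higher and 1 lower in the combination than in control at 96 hours, where 35.1% of all genes were called.

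Nr4a1 differed between the replicates. At 96 hours it read 7.63, 7.50 and 7.58 log2 in the combination, 7.91, 7.66 and 7.52 with quetiapine, 7.97, 7.61 and 7.43 with T3, and 8.16, 7.57 and 7.39 in control. Replicate 1 was the highest array in each of the 8 groups, and replicate number accounted for 79.5% of the sum of squares within groups. The same share was 53.3% for Jun, 47.6% for Fos and 2.41% for Arc. The direction was opposite in Jun, which deviated from its group means by −0.43 in replicate 1 and 0.44 in replicate 3 on average, against 0.29 and −0.24 for Nr4a1. No difference of Nr4a1 passed without the block. With it, Nr4a1 was 0.35 higher with quetiapine than with T3 at 48 hours (adjusted p = 0.0455, against 0.660).

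Ier2 and Arc showed no call. Ier2 read 7.21 to 7.83 log2 at 96 hours and 7.46 to 7.81 at 48 hours. Its differences from control lay between −0.11 and 0.20. It was lower at 96 than at 48 hours in the combination only without combination replicate 3 of 96 hours (log2 change −0.32, adjusted p = 0.0426, against −0.21 and 0.148 with all arrays). Arc had group means of 6.23 to 6.50 log2, and its differences from control lay between −0.11 and 0.16.

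**Figure D4:**
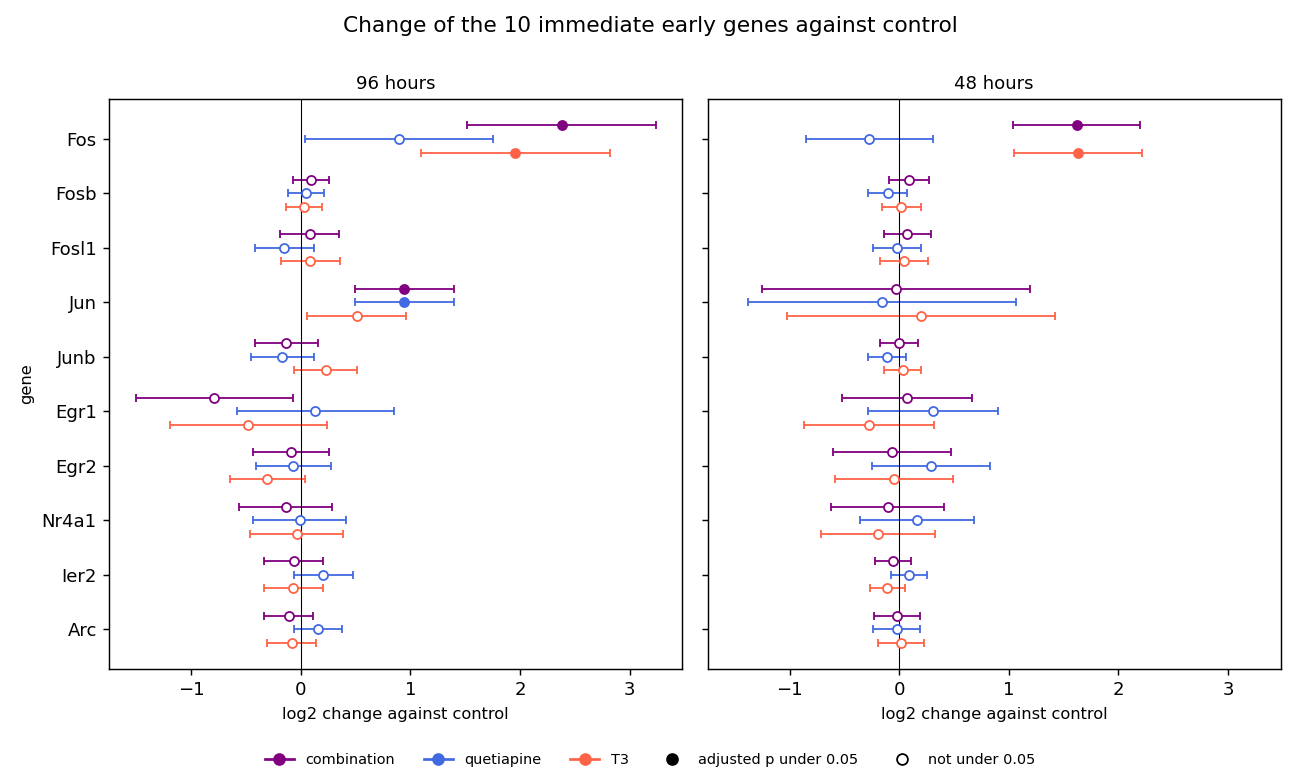
Log2 change of the 10 members against control at 96 hours (left) and 48 hours (right) with 95% confidence intervals from limma, for the combination, quetiapine and T3. Filled points passed an adjusted p of 0.05 in the fit without the replicate. Fos with T3 or the combination is filled at both times, and Jun with quetiapine or the combination at 96 hours only.

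The counts of members are set beside the share of all genes called. In the combination at 96 hours, 2 of 10 members rose against control (Fos and Jun) and none fell, where 35.1% of all genes were called. With quetiapine 1 rose (Jun; 7.25% of genes), and with T3 1 rose (Fos; 14.7%). At 48 hours 1 member rose in the combination (7.34%) and 1 with T3 (1.42%), Fos in both cases, and no member passed with quetiapine (0.183%), nor did any reach an unadjusted p of 0.05. The median log2 change of the 10 members was −0.08 in the combination, 0.09 with quetiapine and −0.01 with T3 at 96 hours, against −0.01, −0.01 and −0.02 over all genes.

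Between treatments, the combination exceeded quetiapine in Fos at 96 hours (9.24% of genes called) and at 48 hours (1.32%), and quetiapine was below T3 in Fos at 48 hours (2.15%). No member passed for quetiapine against T3 at 96 hours (3.31%, with 4 members at an unadjusted p under 0.05), or for the combination against T3 at 96 hours (2.33%, 1 member) or 48 hours (0.0281%, 0 members). The interaction is the departure of the joint log2 change from the sum of the log2 changes of each compound alone. A sum on the log2 scale is a product on the linear scale, so this did not test addition of linear effects. The interaction passed for no member at 96 hours (0.0492% of genes) or 48 hours (0%), and no member reached an unadjusted p of 0.05. For Fos it was −0.47 at 96 hours (interval −1.69 to 0.75) and 0.26 at 48 hours (−0.56 to 1.09).

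Between 96 and 48 hours, 3 of 10 members passed in the combination (27.2% of genes), Fos and Jun upward and Egr1 downward. In quetiapine cultures 1 member passed (3.43%), and with the replicate block 4 did (14% of genes called with it), namely Fos, Fosb and Jun upward and Egr2 downward. No member passed in T3 cultures (8.34%, with 4 at an unadjusted p under 0.05), where 3 did with the block (24.1%), Fos and Junb upward and Egr1 downward. No member passed in control (0.0281%, with 0 at an unadjusted p under 0.05). The difference of an effect against control between the times passed for no member, for the combination (8.17% of genes), quetiapine (0.134%) or T3 (0.0563%). Of these, Fos with quetiapine alone was under the unadjusted threshold, with an effect 1.17 larger at 96 than at 48 hours (adjusted p = 0.729).

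**Figure D5:**
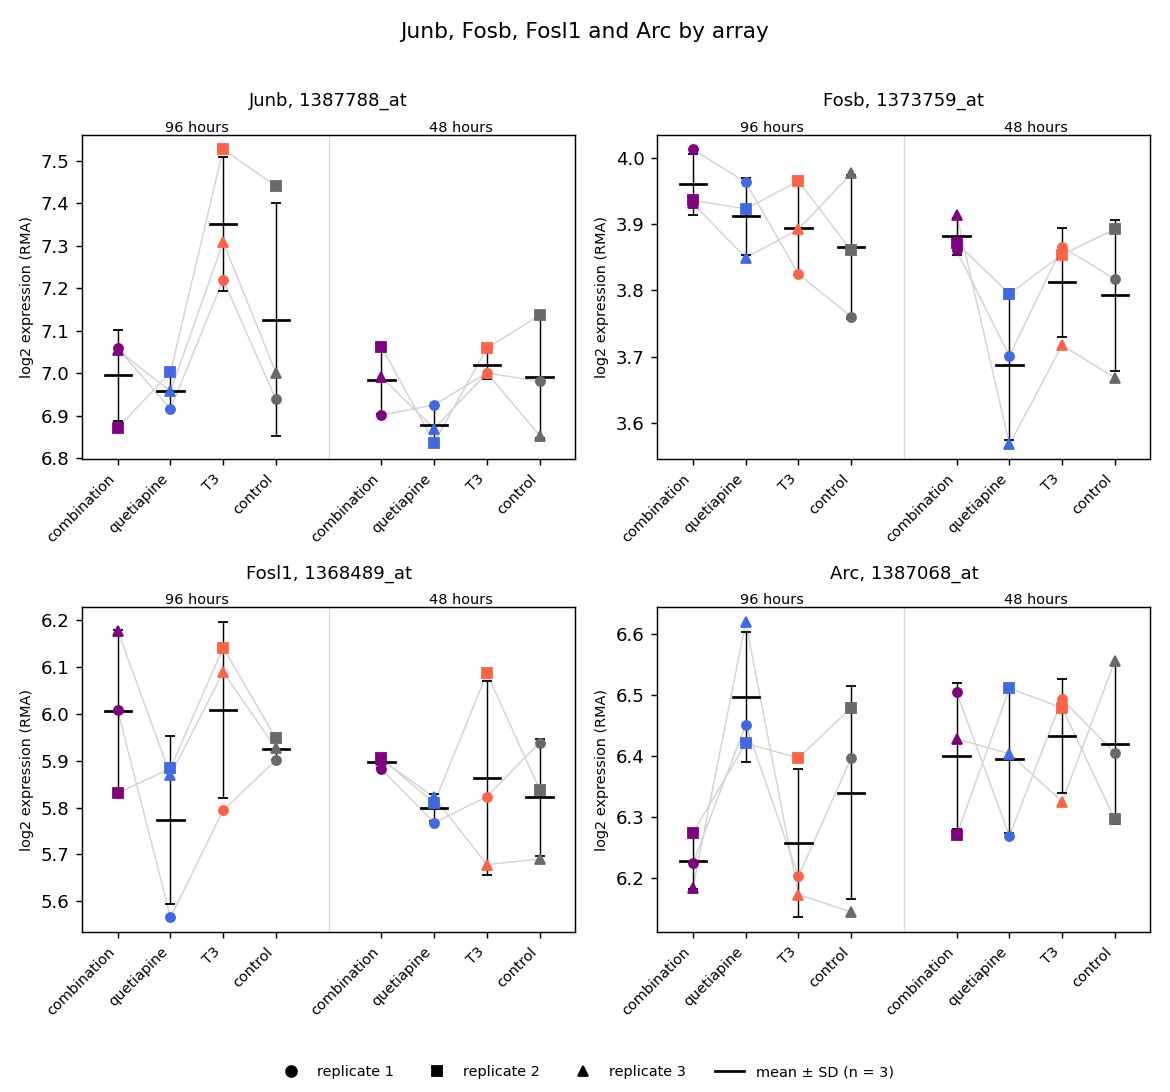
Log2 expression of Junb, Fosb, Fosl1 and Arc in each of the 24 arrays, by treatment and time, each on its own y axis, whose span is far smaller than that of the Fos plot. Points are arrays, grey lines join arrays of the same replicate number, and bars are the mean ± SD of 3 arrays. The 96-hour T3 arrays of Junb lie above the combination and quetiapine arrays of that time, and no difference from control passed the test for these 4 genes.

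Related genes were described from lists of 5 roles. Among AP-1 and basic leucine zipper partners, 4 of 10 measured genes rose in the combination against control at 96 hours, where 35.1% of all genes were called. The median change of the 10 was 0.28 against −0.01 over all genes. The 4 were Jund (0.68), which encodes the most constant of the Jun proteins, the small MAF genes Maff (0.56) and Mafg (0.34), and Batf (0.24). The count was 1 without control replicate 1 or combination replicate 2, and 2 without control replicate 2, control replicate 3 or combination replicate 3. Mafg alone was kept throughout, and it was also the only one to rise with quetiapine (0.32). That call was lost without any of control replicates 1 and 2 and quetiapine replicates 2 and 3, with adjusted p up to 0.0796. With the replicate block and all arrays it passed (limma adjusted p = 0.00414). So did the 4 in the combination, from 0.0001 for Jund to 0.0311 for Batf. None of the 10 passed with T3 at 96 hours.

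Of 6 other EGR and NR4A genes and their co-repressors, 1 rose in the combination at 96 hours, where 35.1% of all genes were called. It was Nab1 (0.80, adjusted p = 0.00741), whose product binds and represses EGR proteins. With the replicate block 1 rose and 2 fell, where 47.6% were called. The count was 2 without control replicate 1 and 3 without combination replicate 3. None passed with quetiapine or T3 at that time, though 1 did with quetiapine without control replicate 1.

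Of 20 other primary response genes, 5 rose and 2 fell in the combination at 96 hours, where 35.1% of all genes were called. With the replicate block 9 rose and 4 fell, where 47.6% were called. The gene with the largest change was Dusp1, a phosphatase that switches off MAP kinases, which read 8.22, 10.32 and 10.48 log2 in the combination, 7.35, 9.16 and 9.29 with quetiapine, 7.27, 8.04 and 8.08 with T3, and 6.61, 6.64 and 6.86 in control. The combination exceeded control by 2.97 (adjusted p = 0.00364). Replicate 1 was the lowest array of each treated group. Gadd45b, a stress and growth arrest gene, rose by 1.79 in the combination and 2.12 with T3 (adjusted p = 0.00143 and 0.00173), and Csrnp1, a nuclear factor, by 1.11 in the combination. Rgs2, a brake on G protein signalling, fell by 0.94 in the combination and 0.83 with quetiapine, and Homer1, a scaffold protein of synapses, fell by 0.75 in the combination and 0.72 with T3. Of the 8 neuron markers, 2 were lower and 1 higher in the combination and 2 were lower with T3, as given above. The part of neurons in the change of Homer1 was not tested. Errfi1, an inhibitor of the EGF receptor, rose by 0.58 in the combination and 0.52 with T3 (limma adjusted p = 0.00131 and 0.00772). All these calls were kept without any single array, while the count in the combination was 12 without combination replicate 1 and that with quetiapine, 1 of 20, was 2 without quetiapine replicate 1.

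Among 13 upstream kinases and factors, 3 rose and 3 fell in the combination at 96 hours, where 35.1% of all genes were called. Atf1, which binds the cAMP response elements of such genes, rose by 1.61 in the combination, 0.81 with quetiapine and 0.85 with T3. Map2k1, which encodes the ERK kinase MEK1, rose by 1.21, 0.59 and 0.51 in the same order of treatments. Elk3, a partner of serum response factor that can repress its targets, fell by 1.82 in the combination and 1.08 with T3, and Elk1, its activating relative, fell by 0.54 in the combination. These calls were kept without any single array. Crem, a cAMP-responsive regulator, rose by 0.49 with quetiapine, which was lost without replicate 1 or 2 of quetiapine or of control (adjusted p up to 0.0908). Crem also rose by 0.41 in the combination (limma adjusted p = 0.0143). That call was lost without control replicate 1 or combination replicate 2 (up to 0.0566). With the replicate block and all arrays, Crem passed with quetiapine (limma adjusted p = 0.012) and in the combination (0.0112).

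Of 10 genes known as AP-1 targets, none rose and 2 fell in the combination at 96 hours, where 35.1% of all genes were called. The median change of the 10 was −0.49 against −0.01 over all genes. With the replicate block 1 rose and 5 fell, where 47.6% were called. Vim, which encodes the intermediate filament vimentin, fell by 2.40 (adjusted p = 0.0011) and Hmox1, heme oxygenase, by 1.25 (0.0135, lost without control replicate 2 or 3, with adjusted p up to 0.0513). Without control replicate 2 the count was 1. With quetiapine 2 fell, where 7.25% of all genes were called. They were Timp1, an inhibitor of matrix proteases, by 1.58 and Hmox1 by 1.43. Neither passed when any of quetiapine replicates 1 and 3 and control replicates 2 and 3 was left out. With the replicate block and all arrays, both passed with quetiapine (limma adjusted p = 9.35e-05 for Timp1 and 3.68e-05 for Hmox1). Hmox1 in the combination passed as well (1.42e-05). Astrocytes express vimentin strongly, and of the 8 astrocyte markers 5 were lower and 1 higher in the combination, while 1 was lower with quetiapine. The part of cell makeup in these changes was not tested.

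At 48 hours few related genes passed, where 7.34% of all genes were called in the combination, 1.42% with T3 and 0.183% with quetiapine. Ier5, an immediate early response gene, rose by 0.71 with T3 (adjusted p = 0.00269) and was kept without any single array. Without control replicate 2, 1 AP-1 partner also passed with T3. In the combination Maff rose by 0.49 and Rgs2 fell by 0.47, with adjusted p of 0.0316 and 0.0307. Maff was lost without any array but combination replicate 1 (adjusted p up to 0.122), and Rgs2 without combination replicates 1 or 3 or control replicates 2 or 3 (up to 0.116). With the replicate block and all arrays, both passed (limma adjusted p = 0.00803 for Maff and 0.000406 for Rgs2). Without control replicate 1, 3 primary response genes and 1 upstream gene passed in the combination. No gene of the 5 lists passed with quetiapine, in limma without the block.

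With the replicate block more related genes passed, in the order of partners, EGR and NR4A genes, primary response genes, upstream genes and targets. With T3 at 96 hours, where the block called 30.1% of all genes against 14.7% without it, it gave 2, 1, 6, 2 and 1 higher and 0, 3, 1, 4 and 1 lower, against 0, 0, 2, 2 and 0 higher and 0, 0, 1, 1 and 0 lower without it. With quetiapine at 96 hours (21.5% of genes with the block and 7.25% without) it gave 3, 1, 2, 3 and 0 higher and 0, 0, 1, 2 and 4 lower, against 1, 0, 0, 3 and 0 higher and 0, 0, 1, 0 and 2 lower. At 48 hours in the combination (27.0% with the block) it gave 2, 1, 3, 1 and 0 higher and 0, 0, 3, 5 and 4 lower. The AP-1 targets that passed with quetiapine or the combination were mostly lower.

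The genes whose levels ran most like a member over the 24 arrays were found among 14207 others by Pearson's r, as a description, since the arrays fall into treatment groups. For Fos they were Tmed10 (0.931), Plbd2 (0.929) and Pip5k1b (0.921). For Egr1 they were Pprc1 (0.914), Gstcd (0.895) and Tmx1 (0.891). For Jun they were Crem (0.969), which encodes a cAMP-responsive regulator, Tob1 (0.958) and Dnajb2 (0.955).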

How the data were processed

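The authors deposited log2 expression values of 24 1-colour Affymetrix arrays, made by RMA (background correction, quantile normalization and probe set summary). The version of RMA and the genome build of the annotation are not given in the sources used here. Values were kept as deposited, after 57 control probe sets of 31099 were left out. The members and gene lists were chosen with earlier results of these data known.

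Gene symbols came from the platform annotation. Limma 3.58.1 in R 4.3.3 modelled the 12 arrays of each time with 4 group means, and all 24 arrays for differences between times, without a term for the replicate. Benjamini-Hochberg adjustment ran over the 31042 probe sets tested, and a gene was called at an adjusted p under 0.05. Changes are differences of RMA log2 values, and folds give the same changes as linear ratios. Intervals are 95% from the moderated test, on the log2 scale. The fit was tested on simulated data with independent noise in each array and no replicate effect. That test therefore does not cover the pairing of arrays by replicate. The number of arrays limits the precision.

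Genes were named by rule: all members, for each comparison up to 4 genes of each related list with the largest change among those past its test, and the 3 genes most correlated with each of the 3 members of widest range. Homer1 and Errfi1 were named from T3 against control and Crem from quetiapine against control. Their values in the combination are given beside these. Some related genes looked for are not reported here. Per the deposited design each of 3 biological replicates supplied an array to every group, so replicate numbers pair the arrays. Deviations from group means of arrays with the same number correlated at 0.430 to 0.777 at 48 hours and 0.309 to 0.690 at 96 hours, and those of other arrays at −0.681 to −0.00478 and −0.583 to 0.243. The replicate block, median centring, a filter on dim probe sets, a trended robust prior, a fit over all arrays, the mean of a gene's probe sets and leaving out each array were tried as alternatives. The fits that left out an array had no replicate block, so they did not use the pairing. Raw signals were not analysed here.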

Additional observations from a re-analysis of the deposited data

How the results depend on the processing

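No member that passed a comparison, under the fit as reported or under an alternative other than leaving out an array, changed direction in it under any alternative run. Counts of members that passed moved by 1.5 times or more in the following cases. With the replicate number as a block, which pairs the arrays, 2 members in place of 1 passed for quetiapine against T3 at 48 hours, 1 in place of 0 for the same comparison at 96 hours, and 2 in place of 1 for the combination against quetiapine at 96 hours, where the block called 12.1%, 14.4% and 23.8% of all genes. For 96 against 48 hours the block gave 3 in place of 0 in T3 cultures and 4 in place of 1 in quetiapine cultures. The block added Egr1 to the combination against control at 96 hours (3 in place of 2) and changed no other call. With all 24 arrays in 1 fit, 0 in place of 1 passed for quetiapine against control, 1 in place of 2 for the combination against control and 1 in place of 0 for quetiapine against T3, all at 96 hours. With a trended robust prior 0 in place of 1 passed for the combination against quetiapine at 96 hours (Fos, adjusted p = 0.0567), and 2 in place of 3 for 96 against 48 hours in the combination (Jun lost, adjusted p = 0.0539). Without dim probe sets, which leaves out 4 of the 10 members, 1 in place of 0 passed for 96 against 48 hours in T3 cultures (Junb). Median centring and the mean of a gene's probe sets moved no count past that limit.

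Without 1 array in turn, the counts ranged from 0 to 1 for T3 against control at 48 hours, 1 to 2 for T3, 0 to 1 for quetiapine and 2 to 3 for the combination against control at 96 hours, and 0 to 1 for the combination against quetiapine at 96 hours. For 96 against 48 hours they ranged from 0 to 1 in T3, 0 to 3 in quetiapine and 1 to 3 in the combination. They stayed at 1 for the combination against control, quetiapine against T3 and the combination against quetiapine at 48 hours, and at 0 in all other comparisons. Other background corrections and normalizations were not run, since they need raw signals.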

Other observations

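Related genes also differed between 96 and 48 hours in the combination and with quetiapine. In the combination Dusp1 was 3.13 log2 higher at 96 than at 48 hours (limma adjusted p = 0.000134), Atf1 1.46, Jund 1.16 and Map2k1 0.89 higher, while Elk3 fell by 1.10 and Ier5 by 0.85. These calls were kept without any single array. Gadd45b rose by 1.69 (adjusted p = 0.00631, lost without the 48-hour replicate 1, 0.0522) and Klf6, a zinc finger factor, by 1.12 (0.00923, lost without the 48-hour replicate 1 or the 96-hour replicate 3, up to 0.0662). Atf3, a stress-induced AP-1 partner, read 6.91, 7.73 and 7.93 log2 in the combination at 96 hours, against 5.38, 5.67 and 5.77 at 48 hours, a rise of 1.91 (adjusted p = 0.012) that was lost without the 48-hour replicate 1 or the 96-hour replicate 2 or 3 (adjusted p up to 0.0567). Mafk, another small MAF gene, rose by 0.46 and was lost without the 96-hour replicate 3 (adjusted p = 0.0870). In quetiapine cultures Atf3 rose by 2.14 and Dusp1 by 2.08, with adjusted p of 0.0322 and 0.0237. Atf3 was lost without any array but the 96-hour replicate 1 (up to 0.150), and Dusp1 without the 48-hour replicates 1 or 2 or the 96-hour replicates 2 or 3 (up to 0.123). With the replicate block and all arrays, each call described here as lost passed, with limma adjusted p no higher than 0.00474. For Atf3 it was 0.00018 with quetiapine and 9.18e-05 in the combination.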
